A study of Homo sapiens with 4 samples.

Results

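Binding of the transcription factor USF1 was examined at 39 genes of sterol and fatty acid metabolism, out of 20037 protein-coding genes. The genes were taken from a list of 7 regulators, 13 sterol genes and 19 fatty acid and triglyceride genes, and every peak whose centre lay inside a gene or within 10 kb of it was counted as that gene's. The study overexpressed USF1 in Huh7 cells, a human hepatocellular carcinoma line, and sequenced DNA recovered by chromatin immunoprecipitation. There were 2 libraries of chromatin precipitated with an anti-FLAG antibody, called IP 1 and IP 2, and 2 of unprecipitated input chromatin. The authors called peaks in IP 1 over input 1 (list 1) and in IP 2 over input 2 (list 2). The antibody was directed against the FLAG tag, so untagged USF1 of the cells was not measured. No IgG or untagged control was used here, and the labels do not say whether the replicates were separate cultures. They also do not say whether the input chromatin came from the same USF1-overexpressing cells.

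Hepatocytes make cholesterol from acetyl-CoA through mevalonate and squalene, and fatty acids through malonyl-CoA. Both routes are switched on by the SREBP factors, encoded by SREBF1 and SREBF2, which SCAP escorts out of the endoplasmic reticulum and INSIG1 and INSIG2 hold back when sterols are plentiful. USF1 is a bHLH-ZIP factor that binds E-boxes with the core CACGTG, and it is known in liver for its action on the promoter of FASN, where USF and SREBP sites lie close together.

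List 1 held 14300 peaks and list 2 held 27325, from 47165647 tags kept in IP 1 and 43942638 in IP 2, with 46345938 in input 1 and 43562726 in input 2. Peak positions are on GRCh38. A peak is called shared here when 1 bp or more of it is covered by a peak from the other list, which was true of 37.3% of list 1 and 19.6% of list 2. Fold is the peak caller's enrichment of IP tags over the tags it expected locally from input, and its median was 5.83 in list 1 and 5.60 in list 2. The caller's false discovery rate (FDR), obtained by swapping IP and input, was at most 5% for 1.92% of list 1 peaks and 30.8% of list 2 peaks. List 1 is the weaker of the lists by that measure, and a gene without a list 1 peak had none that passed the calling threshold in IP 1.

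The sequences shown first are promoter stretches to which the motif results below refer. They come from the RefSeq promoter table of GRCh38.p14, which holds 49 windows for 33 of the 39 genes. Windows run from 250 bases before an annotated start to 50 bases after it, and the stretches of INSIG1, ELOVL5 and SREBF2 are the 250 bases before the start. INSIG1 and ELOVL5 carry shared peaks at their starts and hold an E-box, set in capitals. In SREBF2, which also has a shared peak at its start, the capitals mark a match to TCACNCCAC, a form of the sterol regulatory element that SREBPs bind. INSIG1 is from chr7:155297628-155297877 (plus strand), ELOVL5 from chr6:53348951-53349200 (minus strand) and SREBF2 from chr22:41832855-41833104 (plus strand).
INSIG1: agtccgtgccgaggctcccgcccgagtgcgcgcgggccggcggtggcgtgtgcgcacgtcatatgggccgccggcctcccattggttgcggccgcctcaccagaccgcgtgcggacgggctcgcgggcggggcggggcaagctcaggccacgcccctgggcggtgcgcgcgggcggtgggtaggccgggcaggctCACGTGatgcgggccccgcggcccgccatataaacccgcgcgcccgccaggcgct
ELOVL5: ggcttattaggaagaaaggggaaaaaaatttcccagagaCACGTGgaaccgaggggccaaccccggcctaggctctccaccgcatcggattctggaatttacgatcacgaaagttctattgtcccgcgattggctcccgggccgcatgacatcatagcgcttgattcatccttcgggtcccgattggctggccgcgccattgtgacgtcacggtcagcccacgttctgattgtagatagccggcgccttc
SREBF2: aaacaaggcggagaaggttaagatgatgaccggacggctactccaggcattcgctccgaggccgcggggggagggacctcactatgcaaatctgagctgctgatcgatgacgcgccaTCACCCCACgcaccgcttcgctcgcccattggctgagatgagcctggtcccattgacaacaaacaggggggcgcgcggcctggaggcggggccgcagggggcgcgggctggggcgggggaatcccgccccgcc

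Shorter stretches of 30 bases show the E-box, in capitals, where a window differs in its peaks. PPARGC1A (chr4:24473011-24473040, minus strand) and SCAP (chr3:47475982-47476011, minus strand) have a list 2 peak over the window, and ABCA1 (chr9:104928285-104928314, minus strand) has none in either list. RUSC1 (chr1:155324414-155324443, plus strand) and FEN1 (chr11:61792869-61792898, plus strand) are neighbours whose starts carry the shared peaks counted for FDPS and FADS1.
PPARGC1A: agtcagcgcgccCACGTGacggccccggct
SCAP: cgccgctgggcgCACGTGcggagggcggcg
ABCA1: gggccccggctcCACGTGctttctgctgag
RUSC1: gtccatgccgccCACGTGctccccggggct
FEN1: tggcgagcaggtCACGTGacgggagcgcgg

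Of the 39 genes, 18 (46.2%) had a shared peak in the gene or within 10 kb, where 21.6% of all protein-coding genes had one. By list, 20 genes (51.3%) had a list 1 peak and 34 (87.2%) a list 2 peak, against 32.7% and 56.8% of all protein-coding genes. Shared peaks were found at 3 of 7 regulators (42.9%), 7 of 13 sterol genes (53.8%) and 8 of 19 fatty acid genes (42.1%). No test was made of these counts. The 39 genes are longer than most, with a median of 40329 bp against 24115 bp over all protein-coding genes, and a longer gene can hold more peaks. Per Mb of window, with overlapping windows merged, the 39 genes held 5.09 shared peaks and all protein-coding genes 2.39. Sterol genes held 10.4 shared peaks per Mb, fatty acid genes 4.40 and regulators 2.70. Their merged windows spanned 0.766, 2.05 and 1.11 Mb, so these densities also reflect window length. The shares of genes with a shared peak, given above, differ less between the classes. The regulator value rests on PPARGC1A, a gene of 680885 bp, and without it the other regulators held 4.86 per Mb, a value computed after the data were seen.

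**Figure D1:**
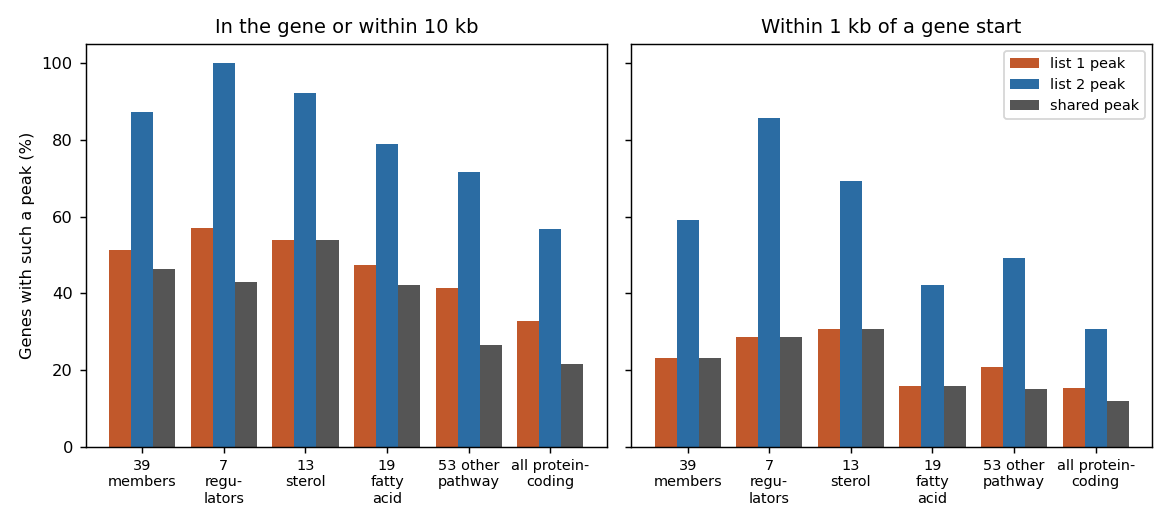
Share of genes (%, linear axis from 0) with a list 1 peak, a list 2 peak or a shared peak, in the gene or within 10 kb (left) and within 1 kb of an annotated start, or of either gene end where no start is given (right). Bars stand for the 39 members, their 3 classes, 53 other pathway genes and all protein-coding genes, and the members' shared bars are at 46.2% and 23.1% beside 21.6% and 12.0% over all protein-coding genes.

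A count less tied to gene length is that of peaks centred within 1 kb of an annotated start. Either gene end was used for the 6 genes without a listed start (FDFT1, SQLE, ABCG1, FASN, DGAT1 and DGAT2). A gene with several annotated starts still offers more places for a peak of this kind. Such shared peaks were found at 9 of the 39 genes (23.1%), where 12.0% of all protein-coding genes had one. A list 1 peak lay there in 9 genes (23.1%, against 15.3% over all), and a list 2 peak in 23 (59.0%, against 30.8%). In list 2 these were 6 of 7 regulators, 9 of 13 sterol genes and 8 of 19 fatty acid genes. The 9 genes with a shared start peak were the regulators SREBF2 and INSIG1, the sterol genes MVK, PMVK, IDI1 and DHCR7, and the fatty acid genes FASN, ACSS2 and ELOVL5.

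**Figure D2:**
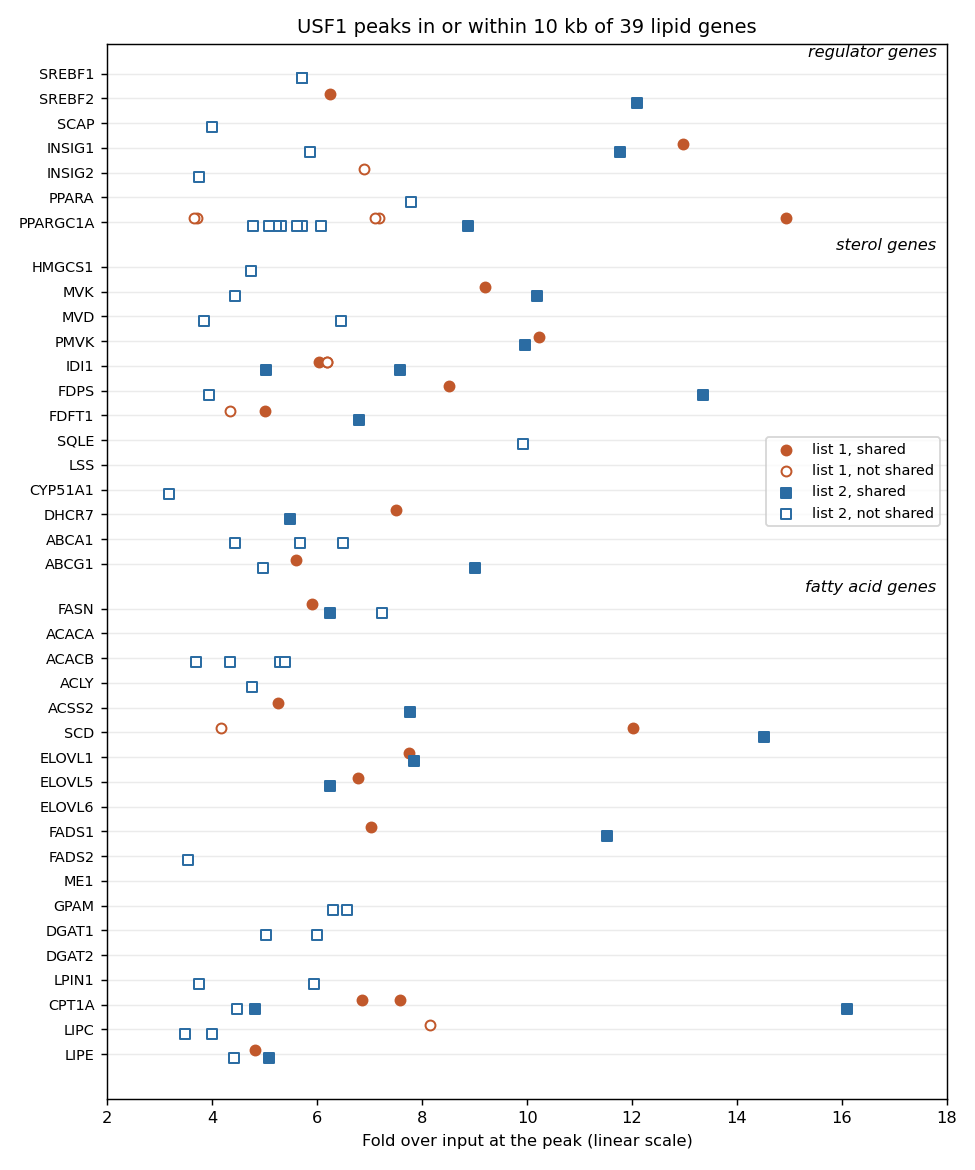
Fold over input (horizontal, linear) of every peak in or within 10 kb of the 39 genes, listed by class down the page. Circles are list 1 peaks and squares list 2 peaks, filled where shared, and at IDI1 a shared and an unshared list 1 peak coincide at 6.19. Regulators INSIG1 and SREBF2 reach 12.97-fold and 12.1-fold, and LSS, ACACA, ELOVL6, ME1 and DGAT2 have no peak.

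Among the regulators, INSIG1, a protein that retains SCAP in the endoplasmic reticulum, had the peak with most tags. Its peak held 187 tags in list 1 and 265 in list 2, with folds of 12.97 and 11.77 and FDRs of 2.44% and 0, at chr7:155296919-155298394 and chr7:155296652-155299440. The summits lay 79 and 58 bp upstream of the start, and the fold exceeded that of 98.2% of list 1 peaks and 97.0% of list 2 peaks. INSIG1 was thus near the top of both lists by fold. The second peak of list 2 inside INSIG1, with 36 tags and 5.87-fold, had no partner in list 1.

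SREBF2, the factor gene of cholesterol synthesis, had 79 tags in list 1 and 86 in list 2 at chr22:41832358-41833346 and chr22:41832259-41833498. Tags were close in the lists but the folds were not, at 6.25 and 12.1, with FDRs of 15.56% and 0.11%. The summits were 284 and 93 bp upstream of the start and 191 bp apart. SREBF1, the factor gene of fatty acid synthesis, had no list 1 peak within 10 kb. In list 2 it had one with 59 tags at chr17:17835995-17836933, its summit 757 bp downstream of the start (5.71-fold, FDR 0.92%), and another with 67 tags whose summit lay 3259 bp upstream (5.71-fold, FDR 5.12%).

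SCAP, the escort of SREBPs, had a single peak, of list 2, with 71 tags at chr3:47475257-47476416 (4-fold, FDR 10.1%). Its summit was 277 bp downstream of the annotated start, which lies inside the gene. The nearest list 1 peak to SCAP was 32489 bp from the gene. INSIG2, the second retention protein, had a peak in each list that did not overlap. In list 1 it had 79 tags and 6.9-fold at a summit 8474 bp downstream of the nearest start (FDR 41.79%), and in list 2 161 tags and 3.74-fold at a summit 208 bp upstream (FDR 22.14%).

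PPARGC1A, a coactivator of fasting metabolism and by far the longest of the 39 genes at 680885 bp, held 5 list 1 peaks and 8 list 2 peaks, of which 1 pair was shared. That pair lay 2033 and 2015 bp outside the gene, at chr4:23789623-23790353 and chr4:23789618-23790394, with 67 and 47 tags, 14.93-fold and 8.88-fold, and FDRs of 5.82% and 5.38%. Its list 1 fold was the highest of any peak at the 39 genes in that list. At an annotated PPARGC1A start, list 2 alone had a peak of 177 tags (5.22-fold, FDR 0.42%), with its summit 147 bp upstream. PPARA, the fatty acid receptor that drives oxidation, had 1 list 2 peak with 38 tags (7.79-fold, FDR 4.21%), outside the gene with its centre 3 bp from the start of CDPF1.

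In the mevalonate part of the sterol pathway, the kinase genes PMVK and MVK had the highest folds among the shared start peaks. PMVK had 251 tags in list 1 and 242 in list 2 at chr1:154935622-154937706 and chr1:154935813-154938062, with folds of 10.22 and 9.95 and FDRs of 0.93% and 0. Its summits lay 172 and 158 bp downstream of the annotated start and 14 bp apart, so the lists placed the peak alike. That start lies inside PMVK and not at its outer end. MVK had 116 and 147 tags at chr12:109572761-109574086 and chr12:109572666-109574272, with folds of 9.19 and 10.18 and FDRs of 16.69% and 0.16%. The MVK summits lay 601 and 587 bp upstream of its annotated start, which is also inside the gene. The peak centres were 370.5 and 325 bp upstream of that start. They were 80.5 and 35 bp from the start of MMAB, a cobalamin enzyme gene whose start faces that of MVK.

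IDI1, the isopentenyl diphosphate isomerase, had 2 shared pairs. The pair at an annotated start inside the gene had 68 tags in list 1 and 99 in list 2 (6.03-fold and 7.57-fold, FDRs 47.69% and 0.17%), with summits 84 and 100 bp upstream of that start. The other pair, with 30 and 52 tags, lay past the far end of the gene, 10608 and 10827 bp from the start of IDI2. A further list 1 peak with 49 tags (6.19-fold, FDR 46.56%) lay 16 bp from the start of WDR37 and 208 bp downstream of another IDI1 start, and list 2 had none there.

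HMGCS1 and MVD, which make HMG-CoA and isopentenyl diphosphate, had start peaks in list 2 alone. HMGCS1 had 499 tags, the most of any peak at the 39 genes, over 3831 bp at chr5:43311900-43315730, wider than 99.2% of list 2 peaks, with a fold of 4.74 and an FDR of 0.65%. A wide peak with many tags and a low fold stands apart from the narrow one of MVD, with 54 tags over 954 bp (6.46-fold, FDR 5.22%). The nearest list 1 peak was 175669 bp from HMGCS1, although its neighbourhood, chromosome 5 from 10 to 50 Mb, held 9.55% of all list 1 peaks and 1.55% of list 2 peaks.

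Later sterol steps differed from gene to gene. DHCR7, the last reductase of cholesterol synthesis, had 63 tags in list 1 and 69 in list 2 at chr11:71448086-71448837 and chr11:71448150-71449181 (7.5-fold and 5.49-fold, FDRs 26.94% and 1.46%), with summits 110 and 210 bp upstream of a start. FDFT1, the squalene synthase, had 150 and 177 tags (5-fold and 6.8-fold, FDRs 60.85% and 0.34%) inside the gene, 7057 and 7040 bp from its nearer end. No start was listed for FDFT1, so whether this peak lies at an inner start cannot be told. SQLE, the squalene epoxidase, had 48 tags in list 2 alone (9.92-fold, FDR 1.51%) with a summit 138 bp outside its nearer end. CYP51A1, the lanosterol demethylase, had the lowest fold of any peak at the 39 genes, 3.17 in list 2 alone, with 121 tags over 1947 bp and a summit 593 bp upstream of a start.

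FDPS, the farnesyl diphosphate synthase, had the most tags of any shared pair, 346 in list 1 and 455 in list 2. Those tags lie at chr1:155322584-155325479 and chr1:155320366-155325490, past the end of FDPS, and the folds were 8.52 and 13.35 with FDRs of 2.03% and 0. The list 1 centre was 94.5 bp and the centre of the wider list 2 peak 1009 bp from a start of RUSC1, the neighbouring gene. The summits were 2 bp apart, 24 and 22 bp from the E-box before a start of RUSC1, and 15586 and 15584 bp from the start of FDPS. At the FDPS start itself list 2 alone had a peak, with 139 tags and 3.94-fold (FDR 1.76%). LSS, the lanosterol synthase, had no peak within 10 kb, and its nearest peaks were at 230016 bp (list 1) and 51427 bp (list 2).

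Of the sterol exporters, ABCG1 had a shared pair inside the gene with 38 tags in list 1 and 36 in list 2, 5.59-fold and 9.01-fold, and FDRs of 100% and 7.82%. ABCA1 had 3 list 2 peaks of 26 to 39 tags deep in the gene, the nearest with its summit 54768 bp from the start, and no list 1 peak. Neither exporter had a peak within 1 kb of a start or end in either list.

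FASN, the fatty acid synthase, had a shared pair over its end coordinate on chromosome 17. It held 121 tags in list 1 at chr17:82097272-82099233 and 143 in list 2 at chr17:82097916-82100147, with folds of 5.9 and 6.24 and FDRs of 7.34% and 0.16%. These folds were close to the medians of all shared peaks, 6.37 in list 1 and 7.05 in list 2, while the tags exceeded those of 92.4% of list 1 peaks and 93.6% of list 2 peaks. The summits lay 354 and 71 bp from that end and 283 bp apart, so the lists did not place them within 100 bp of each other. A further list 2 peak, with 34 tags and 7.23-fold, lay 5766 bp from the same end, inside CCDC57.

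Start peaks were also found at enzymes that supply acetyl-CoA and elongate fatty acids, shared at ACSS2 and ELOVL5 and in list 2 alone at ACLY. ACSS2, the acetyl-CoA synthetase, had 107 tags in list 1 and 132 in list 2 (5.26-fold and 7.76-fold, FDRs 55.37% and 0.19%) at an inner start, with summits 232 and 83 bp upstream. ACLY, which makes acetyl-CoA from citrate, had 56 tags in list 2 alone (4.76-fold, FDR 23.05%) with a summit 116 bp upstream of an inner start. ELOVL5, an elongase of polyunsaturated fatty acids, had 68 and 112 tags at chr6:53348687-53349548 and chr6:53348129-53349674 (6.78-fold and 6.25-fold, FDRs 63.23% and 0.23%). Its summits were 111 and 102 bp upstream of the start and 9 bp apart, a close match between lists with very different FDRs.

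Peaks counted for ELOVL1 and FADS1 lay at the starts of other genes. ELOVL1, an elongase of long saturated chains, was assigned a pair with 66 tags in list 1 and 61 in list 2 (7.75-fold and 7.84-fold), whose centres were 176.5 and 18 bp from the start of CDC20, a cell cycle gene. FADS1, the delta-5 desaturase, was assigned a pair with 240 and 241 tags (7.03-fold and 11.53-fold, FDRs 22.44% and 0), whose centres were 90 and 66.5 bp from the start of FEN1, a DNA replication nuclease. With FDPS, these made 3 of the 20 shared pairs whose list 1 centre lay within 1 kb of another gene's start and not of the listed gene's own. The FDFT1 pair could not be checked for this, and the same share over all shared peaks was not computed. Of 17 shared pairs at members with annotated starts, 8 (47.1%) lay within 1 kb of the member's own start. The pairs of FDPS, ELOVL1 and FADS1, at neighbours' starts, were not among the 8. Over protein-coding genes with annotated starts, 1807 of 3107 list 1 centres of shared peaks (58.2%) lay within 1 kb of a start. That count may take in peaks at a neighbour's start, so the 2 shares are not known to be like for like. FADS2, the delta-6 desaturase, had 1 list 2 peak of 177 tags and 3.54-fold deep in the gene.

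SCD, the delta-9 desaturase, carried its shared pair at the 3′ end and none at its start. The pair held 57 tags in list 1 and 59 in list 2, with folds of 12.02 and 14.52, FDRs of 16.41% and 0.33%, and summits 10 bp apart at chr10:100364696-100365503 and chr10:100364678-100365551. Those summits were 17871 and 17861 bp downstream of the start, and the peak centres 273.5 and 288.5 bp past the gene's end. By fold it ranked above 97.3% of list 1 peaks and 98.5% of list 2 peaks, on a modest number of tags.

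CPT1A, the carnitine transferase that admits fatty acids to mitochondria, had the highest list 2 fold of the 39 genes, inside the gene. The peak had 74 tags in list 1 and 130 in list 2, with folds of 7.58 and 16.1 and FDRs of 63.99% and 0.17%, and summits 4881 and 4901 bp downstream of the start. A second CPT1A pair, with 70 and 44 tags, counted as shared by overlap, although its summits were 880 bp apart. A further CPT1A peak, with 55 tags in list 2 alone (4.48-fold, FDR 18.3%), had its summit 380 bp downstream of the start.

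Among triglyceride genes, LIPE, the hormone-sensitive lipase, had a shared pair beyond the gene with 87 tags in list 1 and 58 in list 2 (4.82-fold and 5.08-fold, FDRs 84.58% and 17.4%). LIPE also had a list 2 peak of 73 tags at an inner start (4.41-fold, FDR 6.67%). GPAM, the first acyltransferase of glycerolipid synthesis, had 74 tags in list 2 alone with a summit 3 bp from an inner start (6.56-fold, FDR 3.32%). DGAT1, a last-step acyltransferase, had 104 tags in list 2 alone, with a summit 6 bp from its nearer end (5.03-fold, FDR 22.58%). A further DGAT1 peak of list 2, with 98 tags (6-fold, FDR 0.42%), was centred 5199 bp outside the gene, inside SCRT1. LIPC, the hepatic lipase, had 1 list 1 peak with 49 tags (8.14-fold, FDR 79.67%) and 2 list 2 peaks that did not overlap it, and LPIN1, a phosphatidate phosphatase, had 2 list 2 peaks away from its starts.

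Some fatty acid genes had no peak within 10 kb in either list, namely ACACA, the main acetyl-CoA carboxylase gene, ELOVL6, ME1 and DGAT2. ACACA spans 321845 bp and had its nearest peaks at 1516902 bp (list 1) and 1446907 bp (list 2). Windows of all protein-coding genes held 5.29 list 1 and 11.1 list 2 peaks per Mb. Whether tags were kept in the stretch around ACACA was not tested, so unbound chromatin there is not shown. DGAT2 had a shared pair just beyond the window, 13319 and 13253 bp from the gene, with folds of 8.38 and 14.29. ACACB, the mitochondrial carboxylase, had 4 list 2 peaks of 46 to 109 tags and no list 1 peak.

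**Figure D3:**
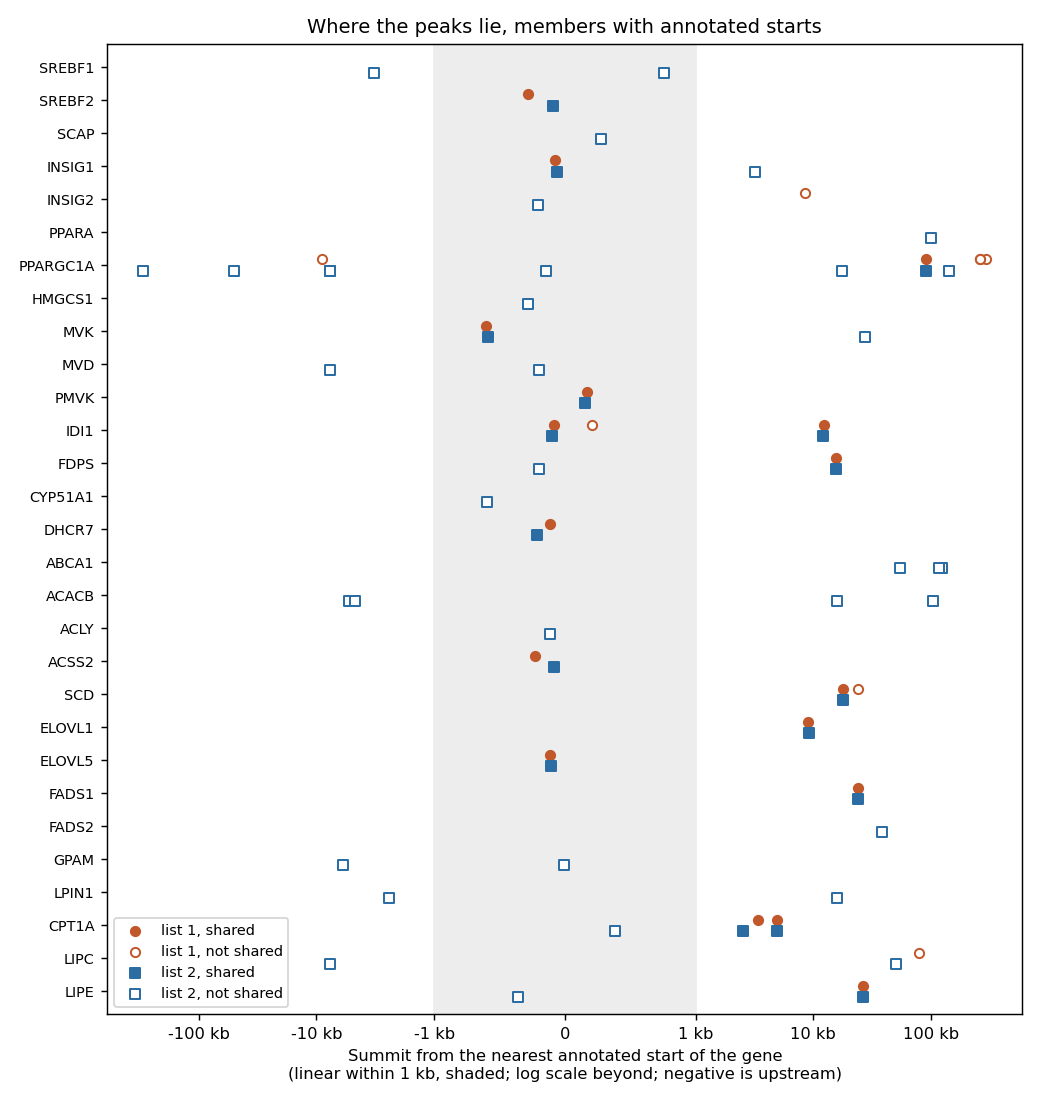
Distance of each summit from the nearest annotated start of its gene (horizontal, linear within the shaded 1 kb on either side and logarithmic beyond, negative upstream) for the members with annotated starts and a peak. Circles are list 1 peaks and squares list 2 peaks, filled where shared. The INSIG1 summits sit 79 and 58 bp upstream, and those of SCD 17871 and 17861 bp downstream.

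Start peaks found in list 2 alone numbered 14, beside the 9 genes with a shared one. Their list 2 folds had a median of 4.75 (3.17 to 9.92), against 7.76 (5.49 to 12.1) for the 9 shared ones. FDRs in list 2 were at most 5% for 6 of the 14, those of SREBF1, PPARGC1A, HMGCS1, FDPS, SQLE and GPAM, and for all 9 of the shared ones. Over all protein-coding genes, 47.4% of list 2 start peaks without a list 1 partner and 77.1% of shared ones had such an FDR. Over the same genes, list 2 start peaks without a list 1 partner likewise had a lower median fold than shared ones, 5.03 against 6.53. The 14 are not shown to be absent from IP 1.

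Across the 20 shared pairs of the 39 genes, the fold was higher in list 2 for 13 (65.0%), against 63.0% of all 5336 shared peaks. Tags were higher in list 2 for 14 (70.0%), against 63.2% of all. Median tags were 76.5 in list 1 and 105.5 in list 2, above the medians of 60 and 68 over all shared peaks, and median widths were 962 and 1416 bp against 866 and 983 bp. Median folds were 6.94 and 8.36, against 6.37 and 7.05. Summits of 16 of the 20 pairs (80.0%) lay within 100 bp of each other, near the 75.7% of all shared peaks, and the median distance was 20.5 bp, against 38 bp over all. In list 1, 3 of the 20 (15.0%) had an FDR of at most 5%, those of INSIG1, PMVK and FDPS, against 4.84% of all shared peaks. In list 2, 15 (75.0%) did, against 63.2% of all.

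**Figure D4:**
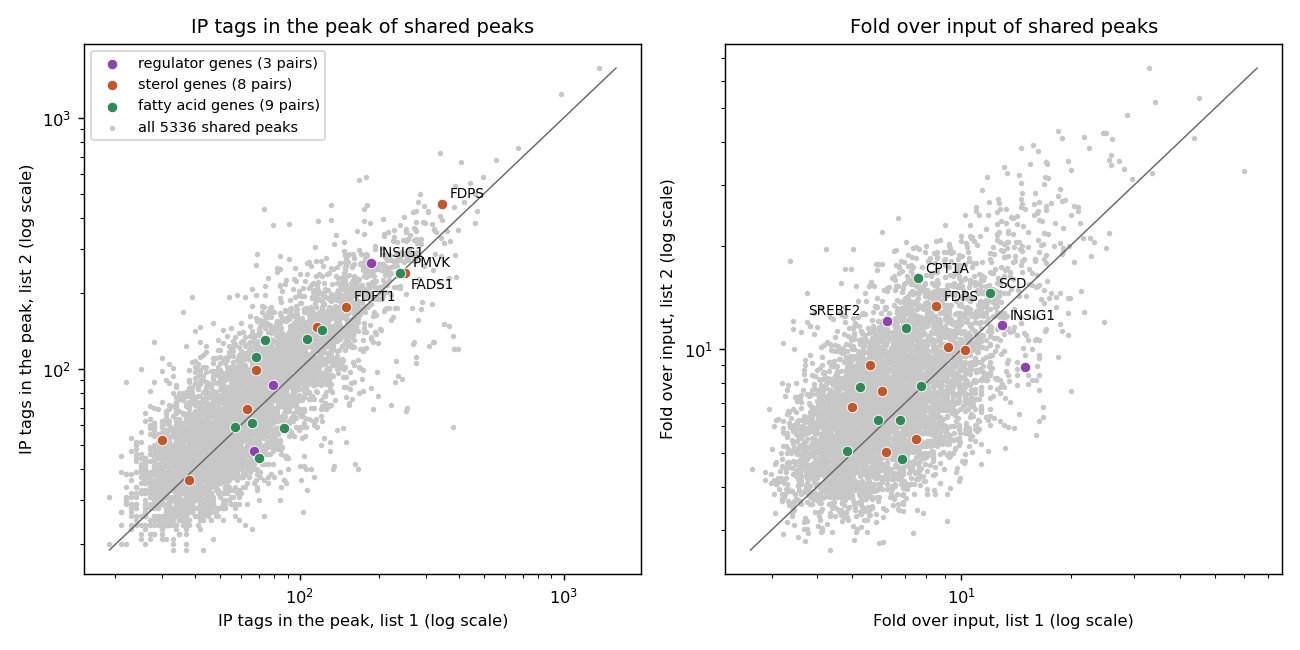
IP tags (left) and fold over input (right) of shared peaks, list 1 on the horizontal and list 2 on the vertical axis, both logarithmic. Coloured points are the 20 pairs of the 39 genes by class, grey points all 5336 shared peaks and the line marks equal values. FDPS has the most tags of the 20 (346 and 455) and CPT1A the highest list 2 fold (16.1).

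The E-box CACGTG, searched on both strands, occurred in 6 of the 49 promoter windows of the 39 genes (12.2%) and in 8.34% of 22199 windows of protein-coding genes. The 6 were those of INSIG1, ELOVL5, SCAP, PPARGC1A, ABCA1 and LSS. A list 2 peak overlapped 4 of the 6 (66.7%) and peaks of both lists overlapped 2 (33.3%). Over all windows with the E-box these shares were 56.3% and 38.0%, and over windows without it 26.1% and 8.78%. Of the 43 member windows without it, 20 (46.5%) were overlapped by a list 2 peak and 7 (16.3%) by both lists.

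Summits lay close to the E-box at some of these starts and not at others. In INSIG1, whose E-box begins 55 bases before the start, the summits were 26 bp from it in list 1 and 6 bp in list 2. At FEN1, beside FADS1, they were 32 and 6 bp away, and the list 2 summit at PPARGC1A was 26 bp away. The ELOVL5 summits were 98 and 106 bp from an E-box that begins 211 bases before the start, and the SCAP summit of list 2 was 332 bp away. LSS and ABCA1 held the E-box with no peak over it. Among neighbour windows under the members' shared peaks, only those of FEN1 and of 1 RUSC1 start held CACGTG. The windows of CDC20, TMEM258 and MMAB and the remaining RUSC1 windows did not.

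**Figure D5:**
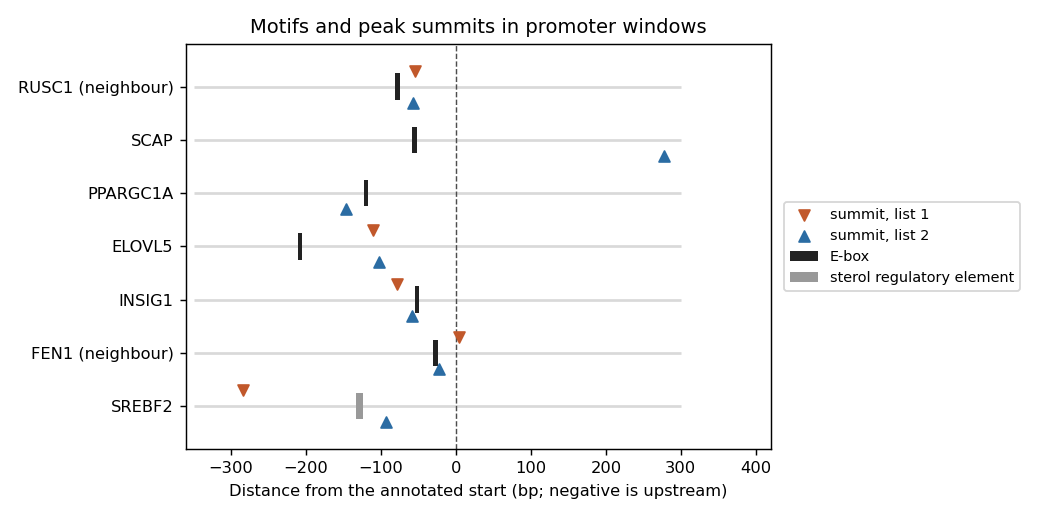
Position of the E-box (black) or of the sterol regulatory element match (grey) and of the peak summits (list 1 pointing down, list 2 pointing up), in bp from the annotated start (horizontal, linear, negative upstream), for promoter windows of members and of neighbours RUSC1 and FEN1 with a peak over them. Summits lie 26 and 6 bp from the E-box at INSIG1 and 98 and 106 bp from it at ELOVL5.

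A longer form of the E-box was rarer. GTCACGTG, which contains CACGTG, occurred in 1 member window (PPARGC1A, 2.04%) and in 3.08% of all windows, of which 67.3% were overlapped by peaks of both lists. The looser CANNTG occurred in 27 of the 49 member windows (55.1%) and in 65.1% of all. TCACNCCAC occurred in the SREBF2 window alone among members and in 1.13% of all windows, of which 7.17% were overlapped by both lists. At SREBF2 the list 2 summit was 36 bp and the list 1 summit 155 bp from that match. CACGTG was not in the windows of SREBF2, DHCR7, IDI1, ACSS2, MVK and PMVK, which have shared start peaks, and the summits of MVK and PMVK, and the list 1 summit of SREBF2, lie outside those windows.

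A further 53 genes of the same pathways had a shared peak in or within 10 kb in 14 cases (26.4%, against 21.6% over all protein-coding genes), and 8 had one near a start (15.1%, against 12.0%). Of those with a shared start peak, LPIN2, a phosphatidate phosphatase like LPIN1, had 10.84-fold in list 1 and 20.59-fold in list 2. SC5D, the lathosterol desaturase, had 13.64-fold and 16.81-fold. Lower folds were found at MSMO1 (4.6-fold and 7.39-fold), AGPAT2 (4.49-fold and 4.62-fold), GGPS1 (4.4-fold and 3.47-fold) and the facing pair HADHA and HADHB, which share 1 peak (6.92-fold and 3.81-fold).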

How the data were processed

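The data were 2 deposited peak lists, 1 per IP against the input of its number. Per the file headers, the authors called peaks with MACS 1.4.2 (p cutoff 1e-05, band width 300 bp, at most 1 tag per position, larger library scaled to the smaller) and did not pool replicates. Bowtie2, deepTools, HOMER and GRCh38 are named, without roles, per the submitters' processing notes. The authors deposited for each peak a count of IP tags, not scaled to depth, a fold ratio over expected tags, a score of −10 times log10 of the caller's p, and an FDR in percent. These per-peak values are the authors' own.

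Here peaks were assigned to genes of RefSeq GRCh38.p14 by their centre, and starts and strand came from the promoter table, which covers 15843 protein-coding genes. Where a gene had several annotated starts, the nearest was used. Software was pandas 2.3.3, numpy 2.4.6 and matplotlib 3.10.9 under Python 3.11.15; assignment and sharing were tested on simulated data. Genome sequence was not used here, so motifs were searched in promoter windows and not in peaks. Members and lists were chosen with earlier results of these data known, so counts are given without tests. Genes named were FASN, SREBF1, SREBF2 and SCAP, every member with a shared peak or a peak near a start, the 3 members of highest fold found in 1 list, and up to 10 other pathway genes with shared start peaks; other members are given by name and count, and 1 of those pathway genes is not reported here. The motifs CANNTG and TCACNCCAC were added after the data were seen.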

Additional observations from a re-analysis of the deposited data

How the results depend on the processing

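With no flank around the gene, 10 of the 39 genes had a shared peak (25.6%, against 11.9% of all protein-coding genes) and 11 a list 1 peak (28.2%, against 17.9%). At a fold of at least 8, 6 had a shared peak (15.4%, against 4.39%), 7 a list 1 peak (17.9%, against 6.91%), 11 a list 2 peak (28.2%, against 12.6%) and 3 a shared peak near a start (7.69%, against 2.15%; INSIG1, MVK and PMVK). At an FDR of at most 5% in each list, 3 had a shared peak (7.69%, against 1.86%), the same 3 a list 1 peak (against 1.88%), and 2 a shared peak near a start (5.13%, against 1.16%; INSIG1 and PMVK). At a caller p of at most 1e-10, 22 had a list 2 peak (56.4%, against 28.4%). These settings keep fewer peaks or shorter windows by construction. With 1 list alone (without replicate 2 and without replicate 1), the count of genes with a peak was 20 and 34 (against 32.7% and 56.8% of all), and near a start 9 and 23 (against 15.3% and 30.8%). Over all alternatives 27 recomputed counts stayed within 1.5 times the reported ones, among them shared peaks with summits within 100 bp (15, 38.5% against 15.9% of all protein-coding genes) and windows of 5 kb (17, 43.6% against 19.3%) and 50 kb (22, 56.4% against 37.4%). Without PPARGC1A, regulators held 4.86 shared peaks per Mb in place of 2.70. The use of gene ends in place of starts (7 near a start, 6 of them among the 9 reported) and an FDR limit on list 2 alone (15) were chosen after seeing the data. Other windows around the gene were not run for peaks near a start, which have their own distance limit. No paired analysis was possible because the values come from no test across samples, and IP and input enter each list together. With 2 lists, the first with 1.92% of peaks at an FDR of at most 5%, a peak missing from list 1 did not pass the caller's threshold there and is not shown to be absent.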
